A study of Mus musculus with 12 samples.

Results

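Haemoglobin is a tetramer of alpha-type and beta-type globin chains, each holding a haem group, and the first red cells of the mouse embryo form in the blood islands of the yolk sac. The 10 genes described here supply the chains and the haem. Of them, 4 encode globin chains: Hbb-bh1 and Hbb-y, the embryonic beta-type chains, Hba-x, the embryonic alpha-type (zeta) chain, and Hba-a1, an alpha chain that is also made in the adult. The other 6 encode enzymes of haem synthesis: Alas2, Alad, Uros, Urod, Cpox and Fech. They were chosen by name, with earlier results of these data known, and are 10 of the 18193 genes that the array measured by a probe set naming 1 gene. Altogether 22 probe sets named a member alone. The probe set with the highest mean over the 12 arrays stood for each gene, and the others are given beside it.

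Yolk sacs were compared at embryonic day 8.5 (E8.5) and E10.5, in 4 groups of 3 arrays. The mice were wild type or Z/Norrin, both of a mixed C57Bl6/129 background. Norrin is a secreted protein that signals through the Frizzled4 receptor and beta-catenin, and Z/Norrin mice carry an allele from which it can be over-expressed outside its normal sites. Which Cre line switched the allele on, in which cells and when are not stated in the labels. Each array measured 1 pool of yolk sacs from 3 to 5 embryos of mixed sex, so the replicates were separate pools. The RNA was total RNA of the whole tissue, in which fewer red cells and less RNA per red cell cannot be told apart.

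Haem is built in a fixed order. Alas2, the erythroid form of aminolaevulinate synthase, makes the first precursor in the mitochondrion from glycine and succinyl-CoA, and its reaction sets the rate of the pathway in red cells. Alad joins the precursor into porphobilinogen in the cytosol, Uros closes the porphyrin ring, Urod and Cpox trim its side chains, Ppox oxidises it, and Fech inserts iron. In red cell precursors the transcription factors Gata1, Tal1 and Klf1 activate both the globin genes and genes of this pathway, through GATA and CACCC elements among others.

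The promoters of 4 members are shown because their letters carry these elements beside the start of genes that are described below. Each line is the 250 bases before the RefSeq transcription start on mouse build GRCm38.p6, in the direction of transcription. Capitals mark any match, on either strand, to GATAA (the core bound by GATA factors), CACCC (bound by Klf1 and its relatives), the CCAAT box or the TATAA box, and overlapping matches run together. On the opposite strand a match to GATAA is printed as TTATC, and one to CACCC as GGGTG.
Hba-x promoter, chr11:32276350-32276599, plus strand: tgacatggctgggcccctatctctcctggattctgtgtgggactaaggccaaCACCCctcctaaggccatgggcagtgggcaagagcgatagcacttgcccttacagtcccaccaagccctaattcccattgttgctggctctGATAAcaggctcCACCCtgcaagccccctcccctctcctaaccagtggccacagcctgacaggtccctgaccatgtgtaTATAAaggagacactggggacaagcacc
Hbb-y promoter, chr7:103853208-103853457, minus strand: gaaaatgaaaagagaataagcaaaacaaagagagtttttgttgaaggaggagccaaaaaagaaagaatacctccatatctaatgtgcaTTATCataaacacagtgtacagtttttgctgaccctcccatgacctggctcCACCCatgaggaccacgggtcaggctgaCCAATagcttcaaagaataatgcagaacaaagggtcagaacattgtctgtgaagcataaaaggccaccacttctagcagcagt
Alas2 promoter, chrX:150547167-150547416, plus strand: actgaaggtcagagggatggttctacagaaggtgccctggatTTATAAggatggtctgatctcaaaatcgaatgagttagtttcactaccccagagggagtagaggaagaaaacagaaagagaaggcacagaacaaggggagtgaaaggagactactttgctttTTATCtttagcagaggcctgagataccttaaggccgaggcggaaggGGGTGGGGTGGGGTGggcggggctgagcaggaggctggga
Cpox promoter, chr16:58669958-58670207, plus strand: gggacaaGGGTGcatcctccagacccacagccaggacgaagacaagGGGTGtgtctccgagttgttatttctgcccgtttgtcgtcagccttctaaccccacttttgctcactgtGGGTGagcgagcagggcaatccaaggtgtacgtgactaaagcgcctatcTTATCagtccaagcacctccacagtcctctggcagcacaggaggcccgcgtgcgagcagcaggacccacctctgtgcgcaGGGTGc

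The Hba-x window had GATAA 107 bases before the start, CACCC 198 and 95 bases before it and TATAA 28 bases before it. In the Hbb-y window the GATAA match lay on the opposite strand with its first base 162 bases before the start, followed by CACCC at 111 and CCAAT at 83. In Alas2 a GATAA match on the opposite strand began 86 bases before the start, and 3 adjoining CACCC matches on the opposite strand began at 40, 35 and 30. In Cpox a GATAA match on the opposite strand also began 86 bases before the start, with CACCC matches on the opposite strand at 243, 204, 135 and 6. Windows were read for 8 of the 10 members, with 10 windows in all, and none for Hbb-bh1 or Fech. Sequences of chromosome 18, where Fech lies, were left out here and from the 32851 windows. GATAA occurred in 6 of these 10 windows and in 22.6% of all 32851 windows of this length. CACCC occurred in 6 of 10 and in 52.0% of all windows, CCAAT in 5 of 10 and 33.8%, and TATAA in 3 of 10 and 22.8%. The windows of Alad overlap and share a CCAAT match, and by member CCAAT occurred in 4 of 8. These are matches of letters and not measured binding sites.

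The arrays correlated at r = 0.975 to 0.992 within a group. Of the 45101 deposited values, 26 to 93 were identical in each of the 30 array pairs of 1 stage, and 0 in each of the 36 pairs that crossed stages. From this the values appear to have been normalized separately by stage, which the labels do not state. Ndp, the gene of Norrin, had 1 probe set and lay between 4.45 and 4.68 on all 12 arrays, at the 5.38 to 8.62 percentile of genes, with no rise in the arrays labelled Norrin. The array therefore gave no check of the genotype labels, and every direction below is that of arrays labelled Norrin. Differences were tested with limma across all genes, and adjusted p-values are Benjamini-Hochberg values over all 18193 genes, two-sided, with a threshold of 0.05. An effect is the log2 difference, Norrin minus wild type, with its standard error (SE).

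At E10.5, 7 of the 10 members fell in the yolk sacs labelled Norrin: Hbb-bh1 and Hba-x among the globins, and Alas2, Alad, Urod, Cpox and Fech among the enzymes. Of all genes, 4.07% were called in that comparison and 2.22% were called lower. The 7 effects ran from that of Alas2, at 32.1% of the wild type level, to that of Hba-x, at 67.5%. Hba-x and Hbb-bh1 lay near the top of the scale, and whether this narrowed their effects was not tested. All 10 members had an effect below 0 (median -0.61, against -0.00 over all genes), and in 8 of them each Norrin array lay below each wild type array, as in 11.5% of all genes. Hbb-y, Hba-a1 and Uros did not pass the test. At E8.5 limma called 0 of the 10 members, against 0.077% of all genes in either direction, and 1 member had an unadjusted p under 0.05.

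**Figure D1:**
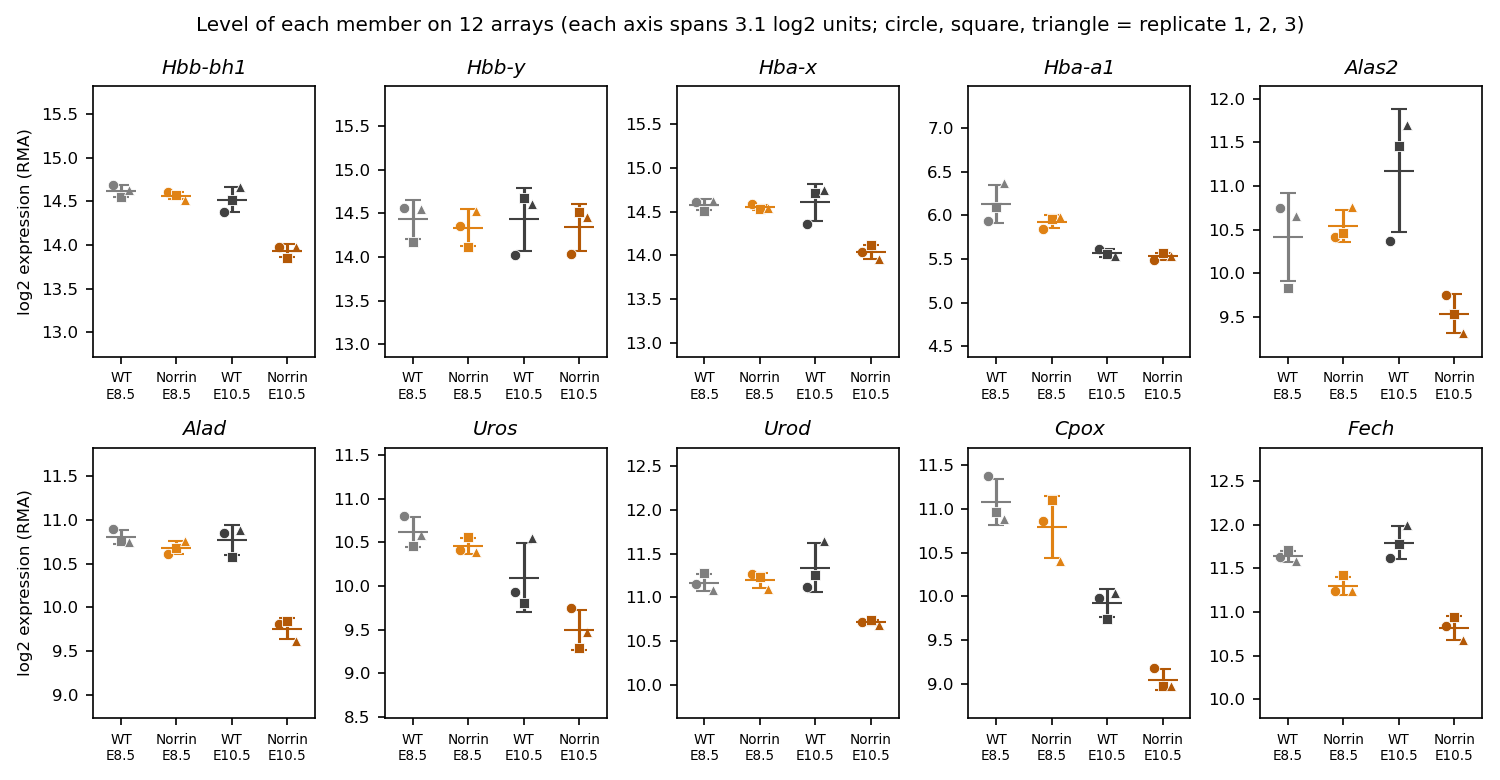
Log2 expression (vertical axis, RMA units) of the 10 members on the 12 arrays by group; circle, square and triangle are replicates 1, 2 and 3, the long bar is the mean and the error bar 1 SD (n = 3), and each panel spans the same number of log2 units. At E10.5 the Norrin arrays lie below all wild type arrays for 8 members, the exceptions being Hbb-y and Hba-a1; Alas2 spreads most among the wild type arrays, from 10.37 to 11.69.

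Among the globins, Hbb-bh1 (chromosome 7, 103841638 to 103843162, GRCm38.p6) encodes the beta-type chain of primitive red cells. Its log2 level in the wild type E10.5 replicates was 14.38, 14.51 and 14.66, and in the Norrin E10.5 replicates 13.98, 13.85 and 13.98. The groups did not overlap at this stage. The effect was -0.58 (SE 0.109, 95% interval -0.82 to -0.35, limma adjusted p = 0.0101), a level of 66.8% of wild type. At E8.5 the wild type arrays read 14.69, 14.55 and 14.63 and the Norrin arrays 14.61, 14.57 and 14.52, which overlap (-0.05, adjusted p = 0.917). The other probe sets of Hbb-bh1, tested among the 34945 probe sets that name 1 gene, gave -0.49 (adjusted p = 0.0395) and -0.56 (adjusted p = 0.0207) at E10.5. Without wild type E10.5 replicate 3 the adjusted p of Hbb-bh1 was 0.0503.

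Hba-x (chromosome 11, 32276600 to 32278116), the alpha-type partner of the embryonic beta chains, read 14.36, 14.71 and 14.75 in the wild type E10.5 arrays and 14.04, 14.12 and 13.96 in the Norrin ones. All Norrin arrays were below the lowest wild type array, which was replicate 1. The effect was -0.57 (SE 0.12, 95% interval -0.83 to -0.31, limma adjusted p = 0.0196). At E8.5 all 6 arrays lay between 14.51 and 14.62 (effect -0.03, adjusted p = 0.962). The E10.5 effect did not pass the threshold when wild type E10.5 replicate 2 or 3 or Norrin E10.5 replicate 1 or 3 was left out (adjusted p = 0.085, 0.0924, 0.0638 and 0.102).

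Hbb-y (chromosome 7, 103851754 to 103853207), the epsilon-type chain and the other embryonic beta-type globin, read 14.02, 14.68 and 14.61 in the wild type E10.5 arrays and 14.04, 14.52 and 14.46 in the Norrin ones. In both genotypes replicate 1 was the lowest array, and the groups overlapped. The effect was -0.10 (SE 0.202, 95% interval -0.53 to 0.34, limma adjusted p = 0.946), so a fall of the size found for Hbb-bh1 lies just outside its interval and a smaller fall or rise lies within it. At E8.5 Hbb-y read 14.57, 14.17 and 14.55 in wild type and 14.36, 14.11 and 14.53 in Norrin (-0.10, adjusted p = 0.921). Its other probe sets gave -0.09 (adjusted p = 0.953) and -0.40 (adjusted p = 0.726) at E10.5. The last of these read 14.11 to 14.45 in wild type and 13.81 to 14.09 in Norrin E10.5 and did not overlap, so the probe sets of Hbb-y differ in the size of their effect.

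These 3 embryonic globins lay near the top of the scale. The highest value on an array was between 14.59 and 14.94, and Hbb-bh1, Hbb-y and Hba-x were within 1 log2 unit of it on all 12 arrays. The third probe set of Hbb-y was within that range on 10 arrays. Whether the top of the scale narrows differences among these genes was not tested.

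Hba-a1 (chromosome 11, 32283672 to 32284486) was read by 1 probe set near the low end of the scale. It lay at the 22.2 percentile of all 45101 probe sets on the array where it ranked lowest. The 3 other probe sets of the gene name Hba-a1 and Hba-a2 together and were not read. Hba-a1 read 5.62, 5.56 and 5.53 in the wild type E10.5 arrays and 5.50, 5.57 and 5.53 in the Norrin ones (-0.04, SE 0.12, limma adjusted p = 0.969). At E8.5 it read 5.93, 6.10 and 6.37 in wild type and 5.85, 5.96 and 5.98 in Norrin (-0.20, adjusted p = 0.731). The groups overlapped at both stages, and a probe set this dim says little about the chain.

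Globins outside the members gave no call, but those measured were dim. Their means over 12 arrays ran from 6.46 for Cygb to 7.13 for Hbb-b2, below the median gene at 7.68. The adult beta genes Hbb-b1, Hbb-bs and Hbb-bt had no probe set naming them alone. A missing call at these levels says little about the adult globins. Of 12 listed globins and the alpha globin chaperone, 5 were measured, and 0 were called by limma at either stage (0 had an unadjusted p under 0.05). The median E10.5 effect was 0.03, with a range of -0.06 to 0.21. Hba-a2, the paired adult alpha gene, read 6.57 to 6.80 in wild type and 6.65 to 7.25 in Norrin E10.5 (0.21, adjusted p = 0.654). Hbb-b2, an adult beta gene, read 7.12 to 7.68 in wild type and 7.14 to 8.05 in Norrin E10.5 (0.06, adjusted p = 0.979). Mb, myoglobin, and Ngb, neuroglobin, gave -0.03 and 0.03.

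Of the haem enzymes, 5 of 6 fell at E10.5, and in all 6 the Norrin arrays lay below the wild type arrays. Their median effect was -0.93. The median of the 4 globin members, of which 2 fell, was -0.33; as 3 of these lie near the top of the scale and Hba-a1 near its low end, the medians are not compared. At E8.5 the median effect of the enzymes was -0.14 and 0 of 6 were called.

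Alas2 (chromosome X, 150547417 to 150570622), the first and rate-setting enzyme, read 10.37, 11.45 and 11.69 in the wild type E10.5 arrays and 9.76, 9.54 and 9.31 in the Norrin ones. Wild type replicate 1 was about 1 log2 unit below the other wild type arrays and still above every Norrin array. The effect was -1.64 (SE 0.315, 95% interval -2.32 to -0.95, limma adjusted p = 0.0118), a 3.11-fold lower level. At E8.5 Alas2 read 10.75, 9.84 and 10.65 in wild type and 10.42, 10.46 and 10.76 in Norrin, which overlap (0.13, adjusted p = 0.931). Alas2 missed the threshold at E10.5 without wild type replicate 2 or 3 or without Norrin replicate 3 (adjusted p = 0.0545, 0.0511 and 0.0605). Alas1, the form of the first enzyme used in most other tissues, read 9.83, 8.96 and 9.23 in the wild type E10.5 arrays and 9.11, 8.73 and 8.75 in the Norrin ones (-0.48, adjusted p = 0.312, and 0.0422 with the replicate number as a block).

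Alad (chromosome 4, 62505984 to 62520063) makes porphobilinogen. It read 10.85, 10.57 and 10.89 in the wild type E10.5 arrays and 9.81, 9.85 and 9.62 in the Norrin ones, with no overlap. The effect was -1.01 (SE 0.12, 95% interval -1.27 to -0.75, limma adjusted p = 0.00095), a 2.02-fold lower level. At E8.5 all 6 arrays lay between 10.61 and 10.90 (-0.12, adjusted p = 0.816). A dimmer probe set of Alad read 7.67 to 7.80 in wild type and 7.06 to 7.28 in Norrin at E10.5 and also fell (-0.58, adjusted p = 0.0436).

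Uros (chromosome 7, 133686142 to 133710467), which closes the ring, read 9.93, 9.81 and 10.55 in the wild type E10.5 arrays and 9.75, 9.29 and 9.47 in the Norrin ones. The Norrin arrays were below the wild type ones by a narrow margin, and wild type replicate 3 stood above the rest. The effect was -0.59 (SE 0.188, 95% interval -1.0 to -0.18) and did not pass the test (limma adjusted p = 0.125). With the replicate number as a block within each stage it did (adjusted p = 0.0451). At E8.5 the effect was -0.16 (adjusted p = 0.849), and the other Uros probe set gave -0.17 at E10.5 (adjusted p = 0.631).

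Urod (chromosome 4, 116989965 to 116994436) removes carboxyl groups from the ring's side chains. It read 11.12, 11.26 and 11.65 in the wild type E10.5 arrays and 10.72, 10.75 and 10.68 in the Norrin ones. The Norrin arrays were tightly grouped below all wild type arrays. The effect was -0.63 (SE 0.136, 95% interval -0.92 to -0.33, limma adjusted p = 0.023), and at E8.5 it was 0.03 (adjusted p = 0.969). Its other probe set gave -0.72 at E10.5 (adjusted p = 0.067). Urod missed the threshold at E10.5 when wild type replicate 2 or 3 or any 1 of the 3 Norrin E10.5 replicates was left out (adjusted p = 0.0531 to 0.0976).

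Cpox (chromosome 16, 58670208 to 58680391), the next enzyme, read 9.98, 9.74 and 10.04 in the wild type E10.5 arrays and 9.18, 8.98 and 8.98 in the Norrin ones. The groups were more than 0.5 log2 units apart. The effect was -0.88 (SE 0.184, 95% interval -1.28 to -0.48, limma adjusted p = 0.0191), a level of 54.5% of wild type. At E8.5 Cpox read 11.38, 10.96 and 10.89 in wild type and 10.87, 11.10 and 10.41 in Norrin (-0.29, adjusted p = 0.741). Its other probe sets gave -0.61 (adjusted p = 0.657) and -0.21 (adjusted p = 0.829) at E10.5, and the mean of its probe sets gave -0.57 (adjusted p = 0.26). Cpox also missed the threshold without wild type E10.5 replicate 1 or 3 or Norrin E10.5 replicate 2 or 3 (adjusted p = 0.0619 to 0.0869).

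Ppox, which oxidises the ring before iron is added, read 9.22, 9.43 and 9.34 in the wild type E10.5 arrays and 8.98, 8.59 and 8.54 in the Norrin ones. It fell as the enzymes on either side of it did (-0.63, SE 0.147, limma adjusted p = 0.0334), and missed the threshold when any E10.5 array other than Norrin replicate 1 was left out (adjusted p = 0.06 to 0.162).

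Fech, which inserts iron and completes haem, read 11.61, 11.78 and 11.99 in the wild type E10.5 arrays and 10.84, 10.94 and 10.67 in the Norrin ones. The effect was -0.98 (SE 0.126, 95% interval -1.25 to -0.70, limma adjusted p = 0.00143), a level of 50.8% of wild type. Fech was the only member whose groups did not overlap at E8.5 either, where it read 11.63, 11.71 and 11.59 in wild type and 11.24, 11.42 and 11.24 in Norrin. That E8.5 effect of -0.34 (SE 0.126) did not pass the test (adjusted p = 0.608), and 6.02% of all genes had Norrin arrays entirely below wild type at E8.5. Its other probe sets gave -0.97 (adjusted p = 0.319), -1.17 (adjusted p = 0.0416) and -0.01 (adjusted p = 0.996) at E10.5. The probe set at -0.01 was a dim one, at 6.01 to 6.25 in wild type.

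**Figure D2:**
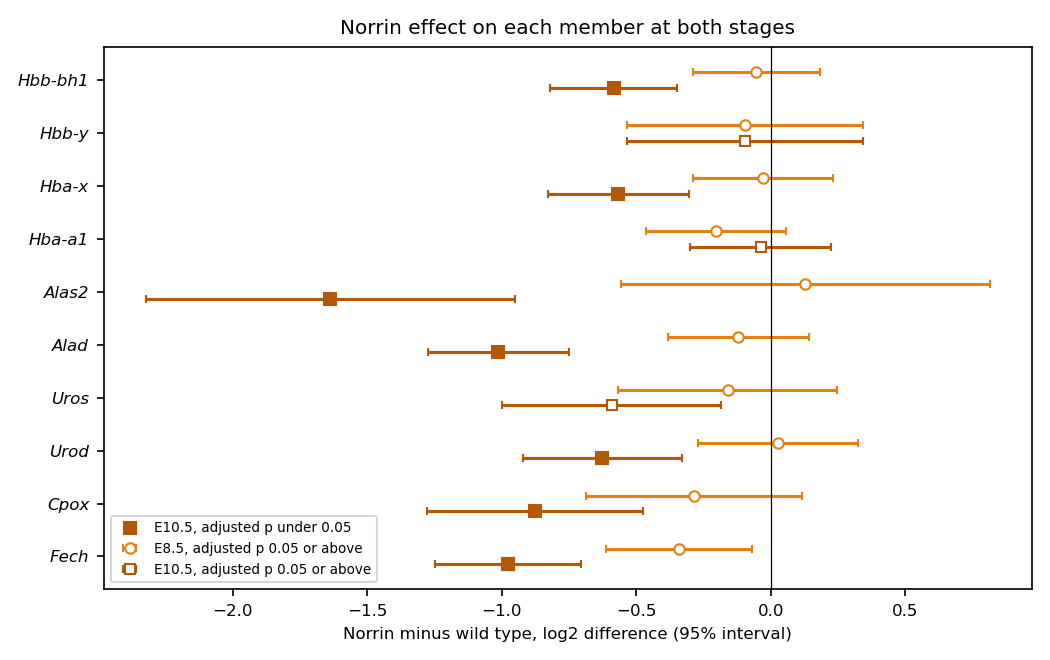
Log2 difference, Norrin minus wild type, for each member at E8.5 (circles) and E10.5 (squares), with its 95% interval from limma (n = 3 arrays a group); filled markers have an adjusted p under 0.05. The 7 filled markers are all at E10.5, from -1.64 for Alas2 to -0.57 for Hba-x, and no E8.5 marker is filled.

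Alad and Fech kept an adjusted p under 0.05 at E10.5 in all 21 alternative analyses, and Hbb-bh1 in 20 of 21. Alas2 passed in 18, Hba-x and Cpox in 16, Urod in 15 and Uros in 2. The number of members called at E10.5 was 6, 4 and 2 without wild type E10.5 replicate 1, 2 and 3, and 5, 5 and 3 without Norrin E10.5 replicate 1, 2 and 3. Over all 22 probe sets of the members, 22 had an E10.5 effect below 0 and 11 were called lower, against 1.46% of the 34945 named probe sets. Probe sets of 1 gene share its RNA and are not independent of each other.

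**Figure D3:**
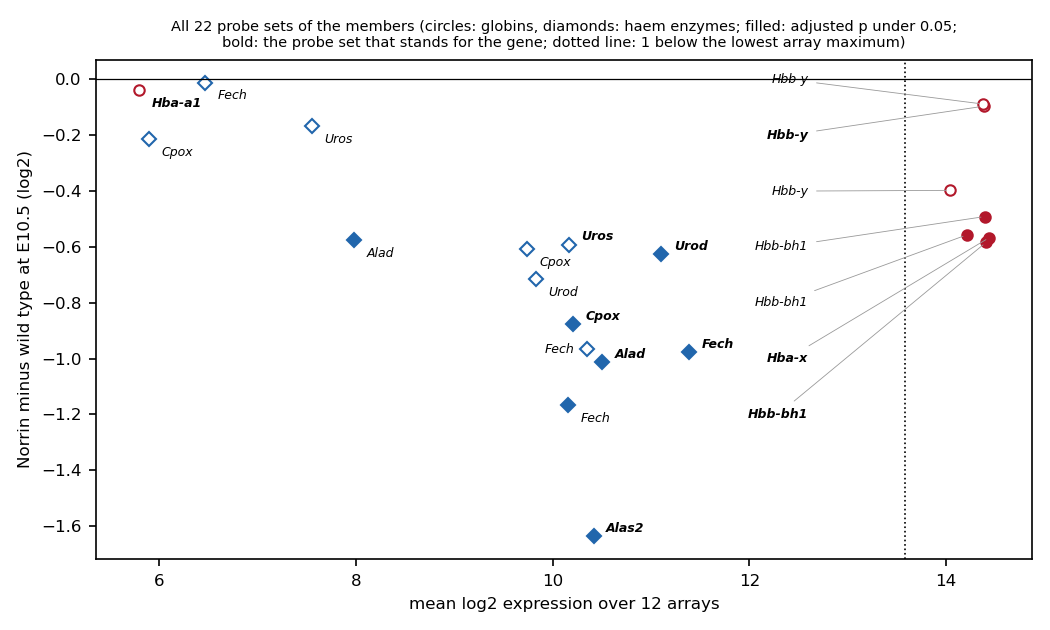
Mean log2 level over 12 arrays (horizontal axis) and log2 difference, Norrin minus wild type at E10.5 (vertical axis), for the 22 probe sets of the members; circles are globins, diamonds enzymes, filled markers have an adjusted p under 0.05, and bold names mark the probe set that stands for the gene. Every marker lies below 0; those near 0 are the dim probe sets of Fech and Hba-a1 and a pair of bright ones of Hbb-y, whose remaining probe set lies at -0.40.

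The rest of the pathway and other red cell genes were read from 5 lists. These lists, and 10 lists of cell type markers, were chosen with earlier results of these data known, and their counts are a description. Of 21 other enzymes and mitochondrial carriers, 18 were measured; 3 fell at E10.5, 0 rose, and the median effect was -0.31. Slc25a37, mitoferrin, which brings iron into the mitochondrion of red cell precursors, read 10.33, 11.81 and 11.80 in wild type and 9.20, 9.13 and 9.32 in Norrin E10.5. Its effect was -2.10 (SE 0.369, limma adjusted p = 0.00717), below that of any member. Tmem14c, which helps move porphyrin precursors within the mitochondrion, gave -0.93 (adjusted p = 0.0309), and Ppox was the third. Abcb10, a mitochondrial transporter of red cell precursors, gave -0.79 (adjusted p = 0.506, and 0.0117 with the replicate block). With that block 7 of the 18 fell, but it called 6.8% of all genes lower at E10.5, against 2.22% without it. Without wild type E10.5 replicate 1 or 3 or Norrin E10.5 replicate 3 only 1 of the 18 fell.

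Of 12 genes of haem export, breakdown and sensing, all measured, 2 fell at E10.5 and the median effect was -0.28. Blvrb, a biliverdin reductase that is abundant in red cells, read 9.93, 10.29 and 10.69 in wild type and 9.07, 9.14 and 8.64 in Norrin (-1.35, SE 0.192, limma adjusted p = 0.00251). Eif2ak1, the kinase that slows translation when haem is short, gave -0.62 (adjusted p = 0.0306). Hmox1, haem oxygenase, which breaks haem down, lay at 10.34, 11.22 and 11.10 in wild type and at 11.18, 12.98 and 11.62 in Norrin E10.5. Norrin replicate 2 was its highest array, and the groups overlapped (1.04, adjusted p = 0.277, and 0.0379 with the replicate block). Hebp1, a haem-binding protein, gave -0.98 (adjusted p = 0.0585, and 0.00589 with the block). Hpx, the plasma haem carrier haemopexin, gave -0.72 (adjusted p = 0.751), and its effect was 0.23 without wild type E10.5 replicate 2. With the block 4 of the 12 fell and 1 rose, beside 13.2% of all genes called in either direction at E10.5. Only 1 was called without wild type E10.5 replicate 2 or 3 or Norrin E10.5 replicate 2 or 3.

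Among 16 regulators of globin and haem genes, all measured, 5 fell at E10.5 and the median effect was -0.50. Klf1, the CACCC-binding activator of globin genes, read 9.50, 9.24 and 10.46 in wild type and 8.26, 7.82 and 7.63 in Norrin E10.5 (-1.83, SE 0.323, limma adjusted p = 0.00733). Tal1, which acts in a complex with Gata1, gave -1.65 (adjusted p = 0.0227). Nfe2, which binds the beta globin control region, gave -1.17 (adjusted p = 0.0311), E2f2, a cell cycle factor of late red cell precursors, gave -0.93 (adjusted p = 0.0275), and Sox6, a repressor of Hbb-y, gave -0.56 (adjusted p = 0.0199). Gata1 itself read 8.21, 8.41 and 9.55 in wild type and 7.56, 7.68 and 7.55 in Norrin, with no overlap, and did not pass (-1.13, adjusted p = 0.111, and 0.0159 with the replicate block). With the block 9 of the 16 fell at E10.5 and 2 at E8.5, beside 6.8% and 0.61% of all genes called lower. The count was 1 or 2 without wild type E10.5 replicate 2 or 3 or any 1 of the Norrin E10.5 replicates.

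Other red cell genes were read in the same way. Of 24 red cell markers that are no member, 19 were measured. At E10.5, 11 fell, 0 rose, and in 17 the Norrin arrays lay below the wild type ones. The median effect was -1.43. In 1, Cd24a, the Norrin arrays lay above the wild type ones. Cd24a read 9.90, 10.32 and 10.54 in wild type and 11.62, 11.67 and 11.62 in Norrin E10.5 (1.38), and did not pass. Bpgm, which makes the bisphosphoglycerate that loosens oxygen from haemoglobin, read 9.60, 10.15 and 10.05 in wild type and 7.50, 8.19 and 7.51 in Norrin (-2.20, SE 0.24, limma adjusted p = 0.000587). Hemgn gave -2.08 (adjusted p = 0.0213), and Trim10 gave -1.60 (adjusted p = 0.0118). The membrane and membrane skeleton genes Epb42, Rhd, Kel, Ermap, Sptb and Tfrc gave -1.51, -1.45, -1.43, -1.40, -1.10 and -0.93 (adjusted p = 0.0057 to 0.041). Rhag, the Rh-associated membrane protein, gave -2.02 (adjusted p = 0.0586, and 0.00163 with the block). Klf1, Tal1 and Gata1 stand in both this list and that of the regulators. With the replicate block 16 of the 19 fell, beside 6.8% of all genes called lower at E10.5, and 1, Cd24a, rose. The count was 6, 6, 6 and 5 without wild type E10.5 replicate 2 or 3 or Norrin E10.5 replicate 1 or 3. Among the named genes of the 5 lists, Slc25a37, Blvrb, Klf1, Bpgm, Rhd, Ermap and Sptb passed at E10.5 in all 21 alternatives. The other called ones missed the threshold without at least 1 array. Tfrc passed in 10 of the 21, and the mean of its probe sets gave -0.50 (limma adjusted p = 0.674). As means of probe sets Eif2ak1, Ppox, Sox6 and Epb42 also missed the threshold (adjusted p = 0.175, 0.072, 0.0716 and 0.0518). At E8.5 limma called 0 of the 67 genes of the 5 lists, 2 of which had an unadjusted p under 0.05.

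**Figure D4:**
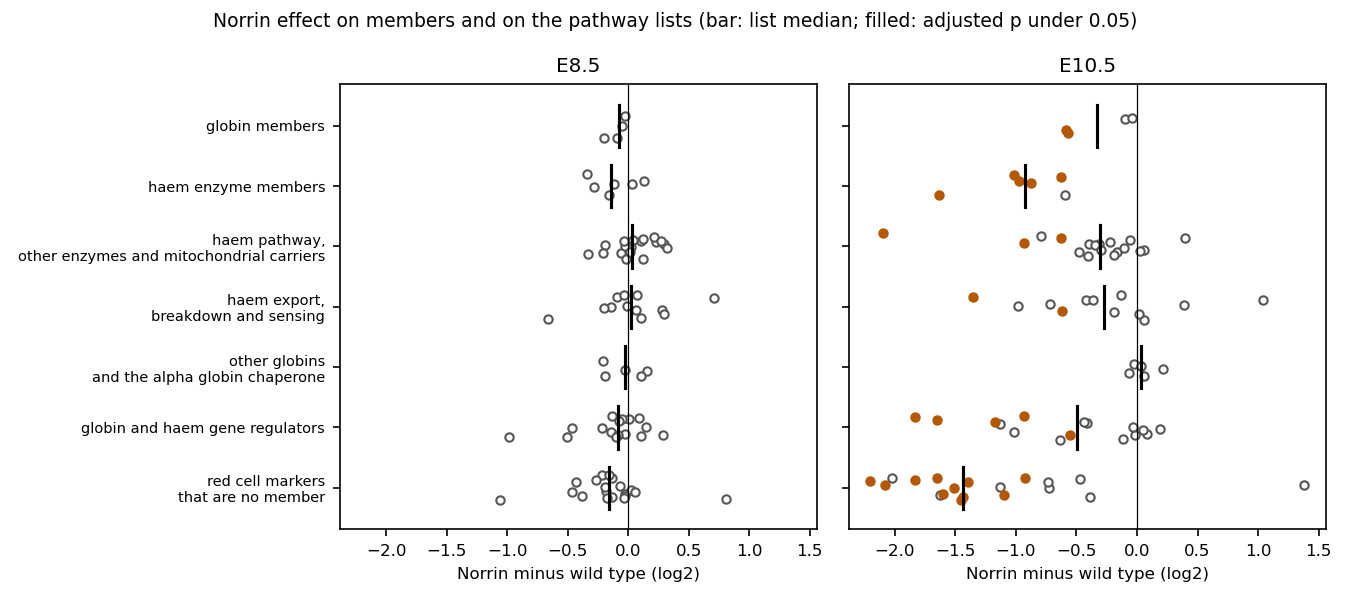
Log2 difference, Norrin minus wild type, of each globin member, haem enzyme member and measured gene of the 5 lists at E8.5 (left) and E10.5 (right); each circle is a gene, the vertical bar the median of its row, and filled circles have an adjusted p under 0.05. No circle is filled at E8.5; at E10.5 the medians run from 0.03 for the other globins to -1.43 for the red cell markers, and every filled circle is below 0.

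The mean log2 level of the 19 red cell markers was 9.20, 9.85 and 10.36 in the wild type E10.5 replicates and 8.59, 8.66 and 8.55 in Norrin E10.5, with no overlap. The mean of the 6 haem enzymes on the same arrays was 10.64, 10.77 and 11.14, and then 10.01, 9.89 and 9.79. In wild type E10.5, replicate 1 was the lowest and replicate 3 the highest in both means; in Norrin E10.5 the highest was replicate 2 for the markers and replicate 1 for the enzymes. At E8.5 the red cell markers read 9.93, 9.68 and 9.33 in wild type and 9.63, 9.65 and 9.18 in Norrin, and the enzymes 11.10, 10.84 and 10.93 and then 10.80, 10.91 and 10.78. Wild type E8.5 replicate 3 was the lowest in the markers but not in the enzymes. For the 4 globin members the means at E8.5 were 12.45, 12.33 and 12.54 with the wild type label against 12.35, 12.29 and 12.39 with the Norrin one. At E10.5 the globin means ran from 12.09 to 12.39 and from 11.89 to 12.02. At E8.5 the markers and the enzymes overlapped between genotypes in their means. The part of red cell number in the members' effects was not tested.

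**Figure D5:**
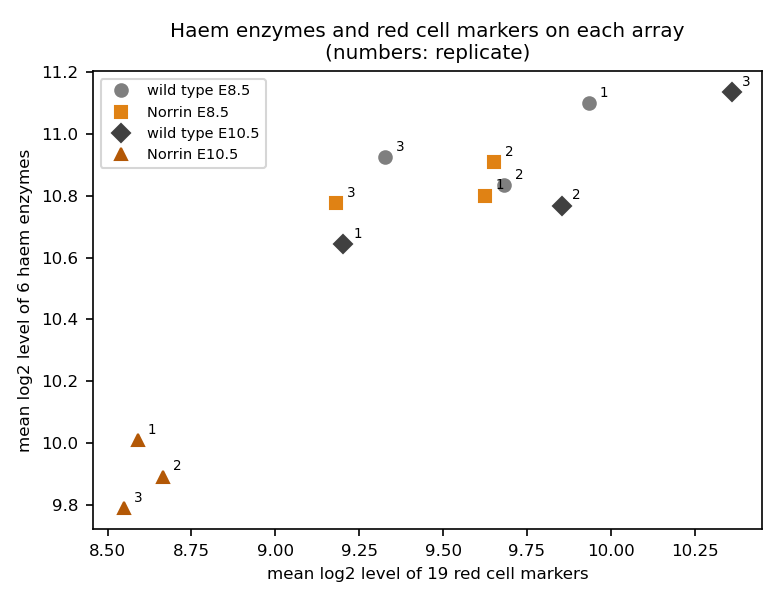
Mean log2 level of the 19 red cell markers (horizontal axis) against that of the 6 haem enzymes (vertical axis) on the 12 arrays; each point is an array, numbered by replicate. The 3 Norrin E10.5 arrays lie apart at the lower left, at 8.55 to 8.66 and 9.79 to 10.01; the other 9 arrays range over 9.18 to 10.36 and 10.64 to 11.14.

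Markers of other cell types also differed between the genotypes. At E10.5 visceral endoderm markers had a mean of 13.14 to 13.54 in wild type and 12.51 to 12.67 in Norrin, and 4 of 11 fell. Parietal endoderm markers read 9.84 to 9.92 and 10.76 to 10.80, and 5 of 11 rose, against 1.85% of all genes called higher. Mesenchyme markers read 11.44 to 11.52 and 11.88 to 12.09, and 2 of 10 rose. Decidua markers read 7.55 to 7.65 and 8.04 to 8.38, with 1 of 7 higher. Endothelial markers overlapped, at 8.22 to 8.72 and 8.31 to 8.85, and limma called 0 of 12, with an unadjusted p under 0.05 for 2. Macrophage markers (7.87 to 8.48 and 7.38 to 8.33) and megakaryocyte markers (8.07 to 8.41 and 7.67 to 8.10) each had 1 gene lower, of 12 and of 8. Trophoblast markers read 8.63 to 9.03 and 8.82 to 10.22, the highest being Norrin replicate 2, with 0 of 6 called. Embryonic neural markers were dim at 5.90 to 6.04 and 6.07 to 6.16 (0 of 9 called), and the 3 measured markers of adult-type red cells read 7.32 to 7.46 and 7.31 to 7.60 (0 called). At E8.5, where limma called no member, visceral endoderm markers also lay apart, at 12.91 to 12.94 in wild type and 12.42 to 12.63 in Norrin, with Apoa4 lower (-1.18, limma adjusted p = 0.0449), 1 of 11. Parietal endoderm markers lay apart there too, at 9.29 to 9.72 and 9.81 to 10.11, with 0 of 11 called and 4 at an unadjusted p under 0.05. The other marker lists overlapped at E8.5. The part of these cell types in the members' effects was not tested.

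The genes whose levels followed Alas2 and Hbb-bh1 most closely included several of the red cell membrane. Over the 12 arrays, with each stage's mean removed, and among genes that are no member and have a mean level at or above the median gene (7.68), the genes closest to Alas2 were Rhd (Pearson r = 0.958), Kel (0.955), Sptb (0.921), Epb42 (0.918), Armc8 (0.91), Blvrb (0.902), Ermap (0.893), Acp5 (0.892), Nrarp (0.889) and Gpx1 (0.888). Those closest to Hbb-bh1 in the same set were Sptb (0.967), Ermap (0.954), Arrb1 (0.945), Dmtn (0.938) and Epb42 (0.938). Among the members themselves, Hba-x gave 0.953 with Alas2 and 0.94 with Hbb-bh1, and Alas2 and Hbb-bh1 gave 0.912 with each other. With Alas2 and Hbb-bh1, Hbb-y gave 0.476 and 0.283, and Hba-a1 0.015 and 0.0548. These values describe a likeness over arrays that share the genotype difference at E10.5, and genes lower in Norrin E10.5 can score high through it. With each group's mean removed, Hba-x gave 0.86 with Alas2 and 0.63 with Hbb-bh1, and Alas2 gave 0.722 with Hbb-bh1. Hbb-bh1 with Alad then went from 0.908 to -0.0157. Sptb, Epb42, Kel, Ermap and Rhd are membrane or membrane skeleton proteins of the red cell, as is dematin, the product of Dmtn.

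The stages were also compared within each genotype. In wild type 2 of 10 were lower at E10.5, against 7.12% of all genes called lower and 25.4% called higher. In Norrin 9 of 10 were lower, against 9.69% of all genes lower and 28.2% higher. A difference between these counts is not a test of a difference between the genotypes, which is the interaction given below. The values appear to have been normalized separately by stage, and then stage and normalization cannot be told apart. Over all genes the median stage difference was 0.14 in wild type and 0.15 in Norrin as deposited, -0.14 and -0.14 with arrays centred on their median, and -0.05 and -0.05 with all arrays quantile-normalized together. Over all genes 4619 were higher and 1296 lower in wild type as deposited, 2450 and 4615 centred, and 2909 and 3374 quantile-normalized; in Norrin these were 5133 and 1762, 2688 and 5002, and 3060 and 3587. Both stage comparisons share their arrays with the genotype comparisons, so they are no separate support for them.

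Cpox fell by stage in both genotypes, by 1.16 in wild type (SE 0.184, limma adjusted p = 0.000624) and by 1.75 in Norrin (adjusted p = 3.2e-05). Its next brightest probe set did not pass, at -0.28 in wild type (adjusted p = 0.645) and -0.35 in Norrin (adjusted p = 0.542). Its dim probe set gave -0.65 and -0.69 (adjusted p = 0.0369 and 0.0254). In wild type the other call was Hba-a1 (-0.56, adjusted p = 0.00392), at its low level. Alas2 was 0.76 higher at E10.5 in wild type and did not pass (adjusted p = 0.0846); without the low wild type E10.5 replicate 1 it was 1.16 higher and passed (adjusted p = 0.00676). Uros gave -0.52 in wild type (adjusted p = 0.0505, and 0.0246 with the replicate block). Hbb-bh1, Hbb-y, Hba-x, Alad, Urod and Fech lay between -0.10 and 0.17 in wild type by the probe set that stands for each gene. Other probe sets differed: the dimmer one of Alad gave -0.90 (adjusted p = 0.000469) and the dim one of Fech -0.71 (adjusted p = 0.00609), while the remaining ones of Fech gave 0.32 and 0.35 and did not pass. The mean of the probe sets of Alad gave -0.46 (adjusted p = 0.00573). Of the 22 probe sets of the members, 5 were called lower in wild type and 15 in Norrin, against 6.84% and 8.64% of all named probe sets.

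In Norrin, the fall from E8.5 to E10.5 took in Hbb-bh1 (-0.63), Hba-x (-0.51), Hba-a1 (-0.40), Alas2 (-1.01), Alad (-0.93), Uros (-0.95), Urod (-0.48) and Fech (-0.48) beside Cpox. Alas2 read 10.42 to 10.76 at E8.5 and 9.31 to 9.76 at E10.5 there. Hbb-y gave 0.00 (adjusted p = 0.988). The other probe set of Uros gave -0.13 (limma adjusted p = 0.381). Those of Fech gave -0.18, -0.54 and -0.75 (adjusted p = 0.757, 0.139 and 0.00381). The other probe sets of Hbb-bh1, Alad and Urod were also called lower. Without Norrin E8.5 replicate 2 or 3 or Norrin E10.5 replicate 2 or 3 Alas2 missed the threshold (adjusted p = 0.0528 to 0.0838), and Hba-a1 did so without Norrin E8.5 replicate 2 or 3 or Norrin E10.5 replicate 1 or 3 (adjusted p = 0.0568 to 0.0656).

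Whether the Norrin effect itself differed between the stages was tested by the interaction, the E10.5 effect minus the E8.5 effect. Limma called 0 of the 10 members, against 0.0934% of all genes in either direction, and 7 members had an unadjusted p under 0.05. Alas2 had the largest difference, -1.77 (SE 0.446, adjusted p = 0.226), and Alad gave -0.89 (SE 0.17, adjusted p = 0.096, and 0.0326 with the replicate block). Hbb-bh1 and Hba-x gave -0.53 (adjusted p = 0.326) and -0.54 (adjusted p = 0.381), Urod -0.65 (0.339), Fech -0.64 (0.294), Cpox -0.59 (0.688) and Uros -0.43 (0.842), the values in parentheses being adjusted p. Hbb-y and Hba-a1 gave -0.00 and 0.17. Calls at E10.5 and their lack at E8.5 therefore do not by themselves show that the stages differ.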

How the data were processed

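Total RNA from 12 pools of yolk sacs was labelled with biotin and hybridised to Affymetrix arrays. The deposited values are log2 expression, for which the submitters' processing notes name RMA without a version as the authors' method. Of 45101 probe sets, 34945 named 1 gene in the platform annotation, 932 named several and were left out, and 64 controls were left out; 34741 matched the RefSeq table of GRCm38.p6 by gene ID. The probe set with the highest mean over 12 arrays stood for each of 18193 genes, with no filter on low values. A mean per group was fitted with the limma package, version 3.58.1, under R 4.3.3 (lmFit, then contrasts.fit and eBayes; 8 residual and 4.17 prior degrees of freedom), with 5 contrasts and a threshold of 0.05 after Benjamini-Hochberg adjustment. The fitting code was tested on simulated data. With arrays no read depth exists; their number, 3 a group, limits precision (median SE 0.159). An exact permutation test of 3 against 3 could not go below 0.1.

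Same-numbered replicates deviated together at both stages (r of deviations from group means 0.726, 0.318 and 0.73 at E8.5, and 0.506, 0.209 and 0.219 at E10.5). Unlike-numbered pairs gave -0.721 to 0.296 at E8.5 and -0.347 to 0.156 at E10.5. Deviations from a group mean cancel out within the group, so the pairs are not independent of each other. The numbers may pair the samples, as a hint from the values only, since the labels do not say what a number marks. The main fit had no block, and a fit with the replicate number as a block was an alternative. Others were a block across stages, centring, joint quantile normalization, array weights, trended robust eBayes, 1 stage alone, the mean of a gene's probe sets, genes at or above the median level (7.68) and leaving out each array.

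The members and lists were chosen with earlier results of these data known. The text names all members, Ppox and Alas1, pathway list genes past the threshold and up to 4 with the largest effect, and the 10 and 5 genes most like Alas2 and Hbb-bh1; 1 other gene under this rule is not reported here.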

Additional observations from a re-analysis of the deposited data

How the results depend on the processing

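The members called at E10.5 kept their direction in every alternative run. With each array left out in turn, 2 to 7 members were called there, 0 at E8.5, 0 for the interaction, 2 to 3 between stages in wild type and 7 to 9 in Norrin. With the replicate number as a block within each stage, 1 member was called for the interaction (Alad, -0.89), Uros was called at E10.5 and between stages in wild type, and no other member's call changed; over all genes the block called 257 genes at E8.5 in place of 14, 2400 at E10.5 in place of 741 and 376 for the interaction in place of 17. Array weights, which ran from 0.219 to 8.03, called 2 members at E8.5, Alas2 higher (0.53) and Fech lower (-0.30), beside 28.3% of all genes. They called 8 members for the interaction, beside 15% of all genes, and 5 between stages in wild type, beside 59.3%. Over all genes they called 5147 at E8.5, 2316 at E10.5 and 2728 for the interaction. With each array left out, 1 to 20 genes were called at E8.5, 353 to 894 at E10.5 and 5 to 36 for the interaction. At E8.5 a block across stages gave 5 genes, trended robust eBayes 22 and the E8.5 arrays alone 0. For the interaction joint quantile normalization gave 29 genes, the mean of probe sets 37 and genes at or above the median level 3; the last setting left 472 genes at E10.5 of 9097 tested. With arrays centred, 5 members were called between stages in wild type, beside 38.8% of all genes. With genes at or above the median level 1 was called, since Hba-a1 was filtered out, beside 21.1% of the genes tested.

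Small effects turned sign. At E8.5 joint quantile normalization gave 0.0103 for Hba-x and -0.0412 for Urod, and array weights gave 0.01003 for Hbb-bh1, 0.0133 for Hba-x, 0.0542 for Uros, -0.0319 for Urod and 0.0692 for Cpox. The Hbb-y interaction was 0.00747 with joint quantile normalization. Between stages in wild type centring gave -0.28 for Hbb-y, -0.25 for Hba-x, -0.11 for Urod and -0.13 for Fech, and array weights gave 0.0431 for Hbb-bh1 and 0.0528 for Alad. Between stages in Norrin Hbb-y gave -0.29 centred and -0.00953 as a mean of probe sets. As means of probe sets at E10.5 Hbb-b2 gave -0.34 and Mb 0.0139. With arrays left out in turn, E8.5 effects ran from -0.16 to 0.30 for Alas2, -0.0159 to 0.0796 for Urod and -0.23 to 0.0165 for Hbb-y. E10.5 effects ran from -0.30 to 0.0561 for Hbb-y, -1.22 to 0.23 for Hpx, -0.23 to 0.23 for Hbb-b2, -0.0993 to 0.0501 for Mb and -0.0231 to 0.057 for Ngb, and the Hbb-y interaction from -0.21 to 0.15. Wild type stage differences ran from -0.0942 to 0.0655 for Alad, -0.13 to 0.21 for Hbb-y and -0.0449 to 0.15 for Hba-x, and the Norrin one of Hbb-y from -0.11 to 0.16. Where a construction such as fewer genes or arrays is not named, the cause was not tested.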

Other observations

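Of the 67 genes of the 5 lists, 16 were higher at E10.5 than at E8.5 in wild type, beside 25.4% of all genes, and 12 in Norrin, beside 28.2%. Some that rose in both genotypes are given here as values, within the limit that stage and normalization may not be told apart. Cygb, cytoglobin, a globin of connective tissue cells, read 5.47 to 5.68 in wild type E8.5 and 7.33 to 7.52 in wild type E10.5, and 5.39 to 5.64 and 7.25 to 7.47 in Norrin. Its stage differences were 1.87 and 1.83 (limma adjusted p = 1.9e-06 and 1.6e-06). Mb, myoglobin, rose by 0.78 in wild type and 0.97 in Norrin (adjusted p = 0.000851 and 0.00017). Hmox1 rose by 1.58 and 2.34 (adjusted p = 0.0144 and 0.00126), and Slc48a1, an endosomal haem transporter, by 1.19 and 1.14 (adjusted p = 2.8e-05 and 2.8e-05). These 4 genes also passed with arrays centred on their median and with joint quantile normalization, Cygb at 1.45 to 1.59. The adult globin genes Hba-a2 and Hbb-b2 rose by 0.48 and 0.67 in wild type (adjusted p = 0.0256 and 0.0388) and by 0.54 and 0.62 in Norrin (adjusted p = 0.0131 and 0.0469), from low levels, and did not pass under either of those scalings (adjusted p = 0.209 to 0.384). The Norrin effect did not differ between the stages past the threshold for any of these 6 genes (interaction adjusted p = 0.896 to 0.994).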
